A study of Homo sapiens with 12 samples.

Results

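Prostaglandin synthesis and breakdown genes were examined in RNA sequencing of LNCaP, a human prostate cancer cell line that responds to androgen, after the ubiquitin protease USP22 was lowered or raised. The group holds 10 genes taken by symbol from a count table of 63677 Ensembl gene IDs: HPGD, PTGS1, PTGS2, PTGES, PTGES2, PTGES3, PTGR1, PTGR2, PTGER4 and SLCO2A1. It was chosen because the level of HPGD moved in opposite directions when USP22 was lowered and when it was raised, so HPGD is described here with no test. The other 9 genes entered for their function, but with earlier results of these data known. In all, 8 of the 10 passed the filter on low counts and PTGS2 and PTGES did not. The 8 had at least 24 reads in every library, the lowest being in PTGS1.

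The 12 libraries form 4 groups of 3: USP22 depletion by the shRNA line shUSP22-4693, an shRNA control, USP22 overexpression, and the pLPLUC vector control. Both shRNA groups received doxycycline for 5 days (1 ug/mL, renewed each 48 hours), the overexpression and vector groups have no such label, and hormone-proficient medium was used for all cells. The depletion rests on 1 named shRNA, and the labels do not say whether the lines are clones or whether replicates were separate cultures, so the spread behind the p-values is that of these libraries and may be technical only. Libraries held 77607469 to 103690001 counted reads.

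The targeted gene followed the labels. USP22 stood at 257, 265 and 251 CPM (reads scaled to the normalised library size) in depleted cells, against 479.6, 473 and 479.7 CPM in the shRNA control, and at 1498, 1406 and 1495 CPM in overexpressing cells, against 482, 491 and 565 CPM in the vector control. All 7 luminal prostate markers were expressed, with a summed level of 3748 to 4104 CPM in depleted cells, 5131 to 5206 CPM in the shRNA control, 4153 to 4283 CPM in overexpressing cells and 4443 to 4697 CPM in the vector control. The sum does not move as 1 set. By edgeR 4 of the 7 were called lower and 1 higher on depletion, beside 10.4% and 9.4% of all tested genes. KLK3 averaged 326 CPM in depleted cells, against 1428 CPM in the shRNA control, and FOLH1 averaged 1413 against 1173 CPM. The 12 markers of other cells, of which 6 passed the filter, summed to 33.4 to 36.2 CPM in depleted cells, 31.9 to 34.1 CPM in the shRNA control, 22.8 to 23.9 CPM in overexpressing cells and 22.0 to 27.4 CPM in the vector control, with PECAM1 at 0 in every library. The gene models used for counting are not given, so whether reads could be assigned to the PECAM1 ID is not known. Vector control replicate 3 stood apart from its group mates: the SD of its log2 values around the mean of its mates was 0.30, against 0.19 and 0.20 for the other 2 vector libraries. Member values that moved most without it are given both ways. Fold changes of genes outside the members are given with all libraries only.

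Prostaglandins are lipid signals made from arachidonic acid, which phospholipases release from membranes. The cyclooxygenases PTGS1 and PTGS2 turn it into prostaglandin H2, and terminal synthases such as PTGES, PTGES2 and PTGES3 turn that into prostaglandin E2, which signals through receptors that include PTGER4. The transporter SLCO2A1 takes prostaglandins up into cells, HPGD oxidises them to inactive keto forms, and the reductases PTGR1 and PTGR2 reduce those further. HPGD is also known as a gene that androgens induce in prostate cells.

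The promoters of 3 of these genes are shown because HPGD and PTGR1 are the members whose groups did not overlap in either USP22 comparison, while PTGS2 is the cyclooxygenase with almost no reads. Over all tested genes, groups did not overlap for 41.8% on depletion and 22.4% on overexpression, and the share for both was not computed. For HPGD these comparisons also chose the group, so the choice of promoters is a description. Each sequence is the 250 bases before the annotated start, 5' to 3' on the gene's own strand, from RefSeq on GRCh38.p14, with any motif match in capitals. The windows are chr4:174522489-174522738 for HPGD, chr9:111599432-111599681 for PTGR1 and chr1:186680424-186680673 for PTGS2, all on the minus strand. RefSeq windows matched 9 of the 10 members, SLCO2A1 being the other, and of 2 windows listed for HPGD the one with more transcript starts in GENCODE was used.
HPGD: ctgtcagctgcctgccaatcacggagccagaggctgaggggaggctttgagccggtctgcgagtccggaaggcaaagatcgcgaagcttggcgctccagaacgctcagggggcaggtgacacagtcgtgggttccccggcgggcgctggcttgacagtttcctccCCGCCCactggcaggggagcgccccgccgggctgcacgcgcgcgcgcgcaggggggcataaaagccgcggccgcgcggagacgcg
PTGR1: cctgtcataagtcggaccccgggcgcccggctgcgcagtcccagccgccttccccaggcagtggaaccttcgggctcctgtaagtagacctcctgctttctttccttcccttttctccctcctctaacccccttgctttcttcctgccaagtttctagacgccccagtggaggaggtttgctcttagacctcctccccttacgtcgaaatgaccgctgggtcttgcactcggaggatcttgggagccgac
PTGS2: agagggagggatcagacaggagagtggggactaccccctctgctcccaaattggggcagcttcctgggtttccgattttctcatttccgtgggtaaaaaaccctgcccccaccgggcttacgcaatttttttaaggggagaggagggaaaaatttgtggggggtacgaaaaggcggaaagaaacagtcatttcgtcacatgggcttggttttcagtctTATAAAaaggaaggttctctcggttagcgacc

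A small set of motifs were searched on both strands in these letters: the TATA box TATAAA, the GC box GGGCGG, the androgen receptor half-site AGAACA and the cyclic AMP response element TGACGTCA. HPGD held 1 GC box, on the opposite strand, beginning 85 bases before the start, and PTGS2 held 1 TATA box beginning 32 bases before the start. No motif was matched in the PTGR1 window, and no matches overlapped. Of 35116 windows of the same length, 42.6% held the GC box, 10.7% the TATA box, 12.4% the half-site and 1.65% the cyclic AMP element. The GC content was 70.8% in the HPGD window, 59.6% in that of PTGR1 and 50.4% in that of PTGS2.

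The members spanned a wide range of levels. Scaled per kilobase of exon, the highest was PTGES3, a cytosolic prostaglandin E synthase better known as the HSP90 co-chaperone p23, with a mean of 119 CPM per kb over the 12 libraries. The membrane-associated synthase PTGES2 followed at 25.1 CPM per kb, PTGR1 at 9.76, HPGD at 2.43, PTGR2 at 2.38 and PTGER4 at 1.34 CPM per kb. SLCO2A1 had 0.141 and PTGS1 had 0.0972 CPM per kb. This order of the overall means did not hold in every group. PTGR2 lay above HPGD in the shRNA control (2.64 against 1.97 CPM per kb) and in overexpressing cells (2.15 against 1.67 CPM per kb). PTGS1 lay above SLCO2A1 in overexpressing cells (0.115 against 0.101 CPM per kb) and in the vector control (0.151 against 0.0833 CPM per kb). Of the cyclooxygenases, PTGS1 was read at a low level and PTGS2 hardly at all.

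**Figure D1:**
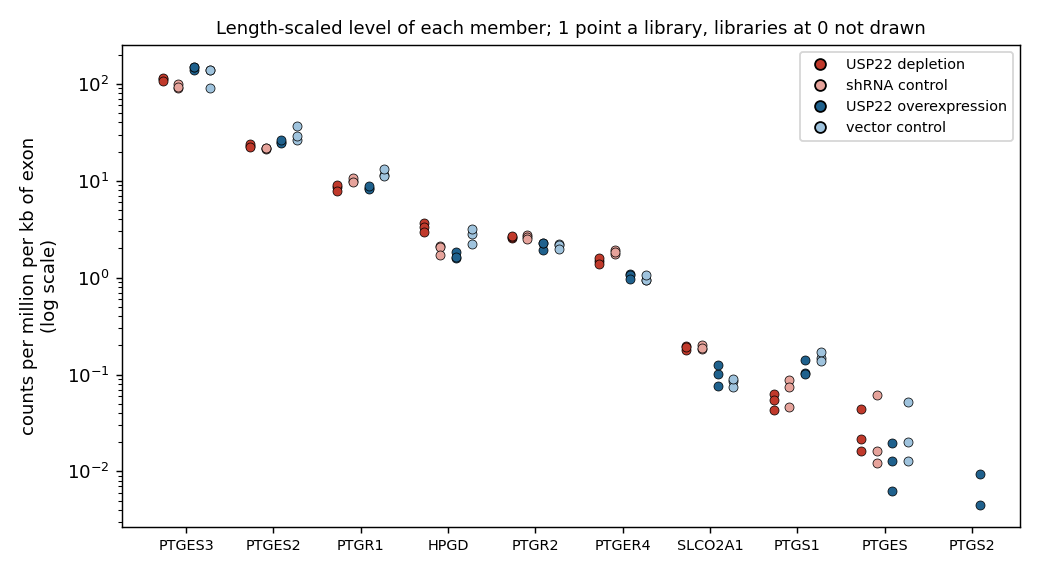
Length-scaled level (CPM per kb of exon, log axis) of the 10 members, with 1 point for each library and libraries at 0 not drawn. PTGES3 lies highest with a mean of 119 CPM per kb, and PTGS2 has points from 2 overexpression libraries alone.

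PTGS2, the inducible cyclooxygenase, had 0 reads in every depletion, shRNA control and vector control library, and 2, 0 and 4 reads in overexpression replicates 1, 2 and 3. Its 6 reads in all lie near the limit of detection: 3 counts, the number that a count of 0 still allows, correspond to 0.0269 to 0.0423 CPM in these libraries, for counting error only. PTGES, the inducible microsomal prostaglandin E synthase, had 3, 4 and 7 reads in depleted cells, 13, 2 and 3 in the shRNA control, 1, 2 and 3 in overexpressing cells and 3, 2 and 7 in the vector control. These ranges overlapped in each comparison. At this depth no difference in either gene was detectable.

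HPGD, the hydroxyprostaglandin dehydrogenase that starts prostaglandin breakdown, had 20.4, 18.2 and 16.5 CPM in depleted cells, against 11.8, 11.4 and 9.52 CPM in the shRNA control. In overexpressing cells it had 8.72, 10.1 and 8.92 CPM, against 15.5, 17.7 and 12.2 CPM in the vector control. Every depleted library lay above every shRNA control library, and every overexpressing library lay below every vector control library. Groups did not overlap for 41.8% of all tested genes on depletion and 22.4% on overexpression. The HPGD values chose the group, so the fold changes, a log2 difference of 0.75 on depletion and -0.72 on overexpression, are given as a description. Of 26076 tested genes, 593 were called in both USP22 comparisons by edgeR, and 71 of these were lower on overexpression and higher on depletion, which is 6.62% of all genes called on overexpression and 1.37% of those called on depletion. Of the rest, 345 were lower in both comparisons, 125 were higher in both, and 52 were higher on overexpression and lower on depletion.

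The order of the HPGD levels also involved the controls. The group means fell in the order depletion (18.4 ± 1.94 CPM), vector control (15.1 ± 2.78 CPM), shRNA control (10.9 ± 1.21 CPM) and overexpression (9.23 ± 0.717 CPM; SD, n = 3 each). Depletion and vector control libraries overlapped, as did shRNA control and overexpression libraries. The shRNA control and vector control libraries did not, as in 49.8% of all tested genes. The shRNA control lay 0.47 log2 units below the vector control. Without vector control replicate 3, its lowest library, the log2 difference on overexpression was -0.85 and that of the shRNA control against the vector control was -0.61. In bulk RNA a lower level per cell and fewer cells that carry the transcript cannot be told apart.

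**Figure D2:**
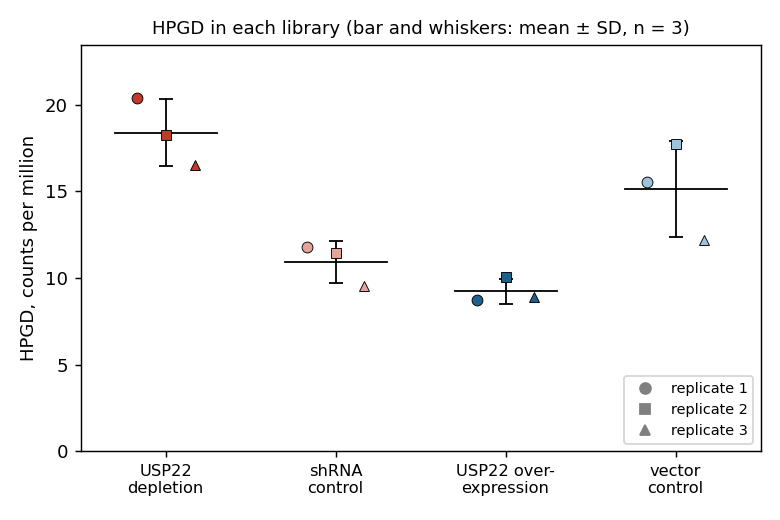
HPGD in CPM for each of the 12 libraries, by group, with the mean and SD of 3 libraries. Depleted cells sit between 16.5 and 20.4 CPM, above the shRNA control, and overexpressing cells between 8.72 and 10.1 CPM, below the vector control.

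Genes with a level pattern like that of HPGD were ranked by the root mean square difference of their mean-centred log2 CPM over the 12 libraries, over 13904 named genes averaging 1 CPM or more. The nearest was RAB39B, a RAB family small GTPase, at 0.186, followed by BEND4 at 0.211, the tyrosine kinase gene BMX at 0.212, the phospholipase C gene PLCB1 at 0.217 and LTF, which encodes lactoferrin, at 0.23. The median over all candidates was 0.447, and HPGD itself varied by 0.40 around its own mean. RAB39B averaged 9.78 CPM in depleted cells and 5.46 CPM in the shRNA control, and 5.29 CPM in overexpressing cells and 7.11 CPM in the vector control. PLCB1 averaged 19.8 and 14.9 CPM in depleted and shRNA control cells, and 11.5 and 14.3 CPM in overexpressing and vector control cells.

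The 7 other tested members were compared in a single edgeR quasi-likelihood fit of all genes. On depletion 2 of them fell and none rose, where 19.8% of all tested genes were called, 9.4% higher and 10.4% lower. On overexpression 1 fell and none rose, where 4.11% of all tested genes were called, 1.51% higher and 2.6% lower. The median log2 fold change of the 7 was -0.01 on depletion and 0.02 on overexpression, beside 0.00 and -0.01 over all tested genes.

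PTGR1, the reductase that acts on the keto products of HPGD and also inactivates leukotriene B4, was lower in both comparisons, as were the 345 genes counted above, itself included. It had 32.2, 34.0 and 29.8 CPM in depleted cells, against 36.9, 40.0 and 36.5 CPM in the shRNA control. In overexpressing cells it had 31.7, 31.1 and 32.8 CPM, against 43.4, 42.2 and 49.6 CPM in the vector control. The groups did not overlap in either comparison, which held for 41.8% of all tested genes on depletion and 22.4% on overexpression, and the depleted and overexpressing cells reached overlapping levels. On overexpression PTGR1 fell to 0.708 of control (edgeR adjusted p = 0.000752; log2 fold change -0.50, SE 0.07), and this call held in all 19 alternatives, with log2 fold changes of -0.55 to -0.43 and edgeR, DESeq2 or limma adjusted p of at most 0.0207. On depletion it fell to 0.846 of control (-0.24, SE 0.07, edgeR adjusted p = 0.0296). The depletion call was lost without any 1 of the 3 shRNA control libraries or without depletion replicate 1 or 3 (edgeR adjusted p = 0.0575 to 0.187).

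PTGR2, the second reductase, had 20.8, 21.1 and 21.9 CPM in depleted cells, against 22.1, 21.3 and 20.4 CPM in the shRNA control. It had 15.5, 18.3 and 18.2 CPM in overexpressing cells, against 17.8, 17.5 and 16.0 CPM in the vector control. Both pairs of groups overlapped, with log2 differences of -0.00 (SE 0.08) and 0.02 (SE 0.08) and edgeR adjusted p of 0.992 and 0.923. In GENCODE its exons share 989 bases with AC005520.1 (7 to 23 reads a library) and 211 bases with ZNF410 (321 to 523 reads) on the same strand, and 1455 bases with AC005520.5 on the opposite strand, so some reads cannot be assigned to 1 gene.

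The summed level of HPGD, PTGR1 and PTGR2 was 68.2 to 73.4 CPM in depleted cells, against 66.5 to 72.7 CPM in the shRNA control, and 55.9 to 59.9 CPM in overexpressing cells, against 76.7 to 77.8 CPM in the vector control. The ratio of HPGD to PTGR1 reads was 0.634, 0.537 and 0.554 in depleted cells, against 0.319, 0.286 and 0.261 in the shRNA control. In overexpressing cells it was 0.275, 0.323 and 0.272, against 0.358, 0.42 and 0.246 in the vector control. The depleted libraries held the highest ratios of the 12, while the overexpressing libraries overlapped those of the vector control through its replicate 3. The HPGD values that chose the group enter these sums and ratios, so they are a description.

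PTGER4, the prostaglandin E2 receptor EP4 that raises cyclic AMP, fell on depletion. It had 5.83, 6.32 and 5.53 CPM in depleted cells, against 6.94, 7.60 and 7.28 CPM in the shRNA control (0.811 of control, edgeR adjusted p = 0.0265; log2 fold change -0.30 with SE 0.09). The groups did not overlap, as in 41.8% of all tested genes on depletion. The call was lost with no filter on low counts (edgeR adjusted p = 0.112), without any 1 of the 3 shRNA control libraries, and without depletion replicate 1 or 3 (edgeR adjusted p = 0.0627 to 0.141). On overexpression it had 4.32, 4.22 and 3.86 CPM, against 3.77, 3.77 and 4.24 CPM in the vector control, with groups that overlapped and a log2 difference of 0.08 (SE 0.10, edgeR adjusted p = 0.723).

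SLCO2A1, the prostaglandin uptake transporter, had 1.92, 1.75 and 1.91 CPM in depleted cells, against 1.79, 2.01 and 1.85 CPM in the shRNA control. In overexpressing cells it had 0.986, 1.24 and 0.75 CPM, against 0.851, 0.731 and 0.874 CPM in the vector control. Within each USP22 comparison the libraries overlapped (log2 differences -0.01 and 0.28, edgeR adjusted p = 0.969 and 0.433). The libraries of the shRNA pair all lay above those of the other pair.

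PTGS1, the constitutive cyclooxygenase, had 0.368, 0.247 and 0.313 CPM in depleted cells, against 0.503, 0.431 and 0.266 CPM in the shRNA control. It had 0.594, 0.815 and 0.587 CPM in overexpressing cells, against 0.851, 0.987 and 0.789 CPM in the vector control. The pairs overlapped, and the log2 differences of -0.38 (SE 0.27) and -0.40 (SE 0.24) had edgeR adjusted p of 0.389 and 0.402. With 24 to 81 reads a library, the normal 95% intervals reached from -0.91 to 0.16 on depletion and from -0.87 to 0.08 on overexpression.

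PTGES2 had 68.8, 72.3 and 67.5 CPM in depleted cells, against 63.9, 66.4 and 65.9 CPM in the shRNA control (log2 difference 0.09, SE 0.09, edgeR adjusted p = 0.575). In overexpressing cells it had 75.9, 73.8 and 80.3 CPM, against 80.1, 88.1 and 112 CPM in the vector control, where replicate 3 was the highest library. Depleted libraries lay above all shRNA control libraries, in a comparison where 41.8% of all tested genes had no overlap. Overexpression replicate 3 overlapped the vector control. The log2 difference on overexpression was -0.28 (SE 0.09, edgeR adjusted p = 0.101), and without vector control replicate 3 it was -0.14 (edgeR adjusted p = 0.132). It was called with no filter on low counts (edgeR adjusted p = 0.0112) and without vector control replicate 1 (edgeR adjusted p = 0.0173).

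PTGES3 had 378, 391.99 and 367 CPM in depleted cells, against 310.2, 335 and 319 CPM in the shRNA control. The groups did not overlap, as in 41.8% of all tested genes on depletion, and the log2 difference of 0.24 (SE 0.12) had an edgeR adjusted p of 0.177. It was called without vector control replicate 3 (0.24, edgeR adjusted p = 0.000144), with the 6 libraries compared alone (edgeR adjusted p = 0.000405) and with no filter on low counts (edgeR adjusted p = 0.000831). In overexpressing cells it had 472, 513 and 502 CPM, against 474, 477 and 309 CPM in the vector control, and the log2 difference of 0.24 (SE 0.12, edgeR adjusted p = 0.282) was 0.06 without vector control replicate 3, and it was called with no filter on low counts (edgeR adjusted p = 0.00418). GENCODE lists 5 pseudogenes of this gene, with at most 422 reads in a library, and how the authors' counting treated reads that match several copies is not given in the sources used here.

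**Figure D3:**
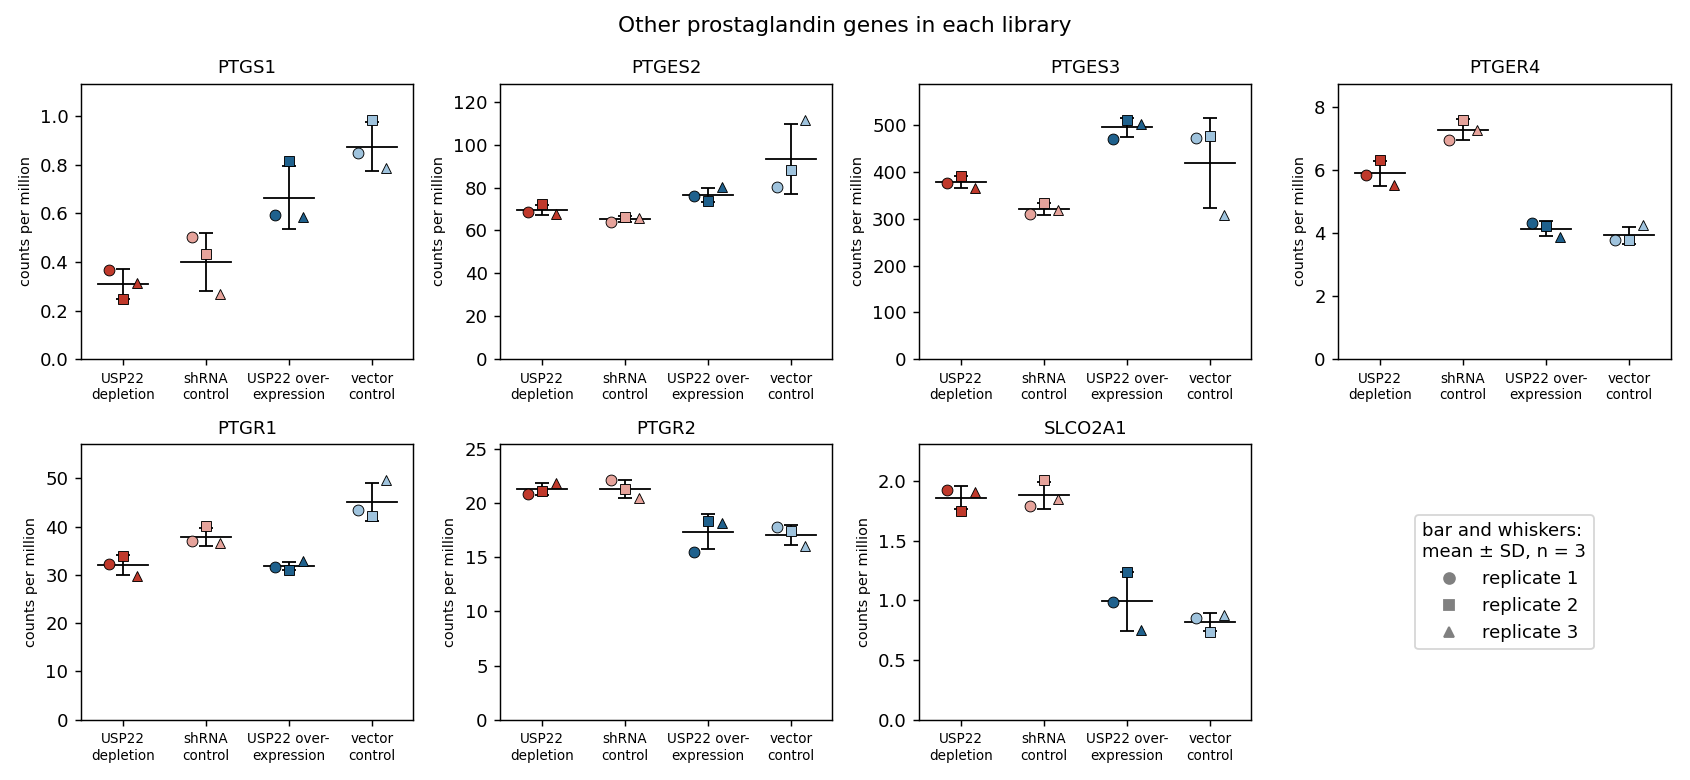
CPM of the 7 other tested members in each library, by group, with the mean and SD of 3 libraries. PTGR1 is lower in depleted and overexpressing cells than in either control, and vector control replicate 3 is apart for PTGES2 (112 CPM) and PTGES3 (309 CPM).

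Whether a member answered differently to lowered and raised USP22 was tested as a difference of the overexpression and depletion effects. None of the 7 was called by edgeR, 3 had an unadjusted p under 0.05, and 10.9% of all tested genes were called. The difference was -0.26 log2 units for PTGR1 (SE 0.10, edgeR adjusted p = 0.137), 0.38 for PTGER4 (SE 0.13, edgeR adjusted p = 0.0814) and -0.37 for PTGES2 (SE 0.13, edgeR adjusted p = 0.0817). DESeq2 called 1, PTGES2 (adjusted p = 0.0407), and limma voom called 0. Without vector control replicate 3 edgeR called PTGER4 (0.43, adjusted p = 0.0174) and PTGES2, whose difference was then smaller at -0.22 (adjusted p = 0.0232), and without vector control replicate 1 it called PTGES2 (adjusted p = 0.015).

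The shRNA control and the vector control also differed in these genes. All 7 tested members were called, 3 higher and 4 lower, in a comparison where 43% of all tested genes were called, 21.7% higher and 21.3% lower. Groups did not overlap for 6 of the 7, PTGES3 being the exception, beside 49.8% of all tested genes. SLCO2A1 was 2.29-fold higher in the shRNA control (log2 difference 1.198, SE 0.17, edgeR adjusted p = 2.87e-05), PTGER4 1.85-fold higher (0.89, SE 0.09, edgeR adjusted p = 1.06e-06) and PTGR2 1.25-fold higher (0.32, SE 0.08, edgeR adjusted p = 0.00293). PTGS1 was at 0.459 (log2 difference -1.12, SE 0.25, edgeR adjusted p = 0.00159) and PTGES2 at 0.701 (-0.51, edgeR adjusted p = 0.000256) of the vector control level. PTGES3 and PTGR1 were at 0.765 and 0.84 of it (edgeR adjusted p = 0.0126 and 0.0109), and their calls were lost in 4 and in 1 of the 19 alternatives. Without vector control replicate 3 the log2 difference was -0.37 for PTGES2, -0.57 for PTGES3, against -0.39 with it, and -0.18 for PTGR1, against -0.25 with it. The 2 control lines differ in construct and in the line itself, and only the shRNA control is labelled with doxycycline. These cannot be told apart. Of the 6 tested markers of other cells 3 were higher and 1 lower in the shRNA control. KRT14 was 5.8-fold higher and VWF stood at 0.618 of the vector control level (edgeR adjusted p = 2.07e-09 and 0.000173). Of the same list, KRT5, TP63 and COL1A2 had 0 to 2 reads in each library and PECAM1 had 0. The source of these marker differences was not tested. The comparison shares its control libraries with both USP22 comparisons.

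**Figure D4:**
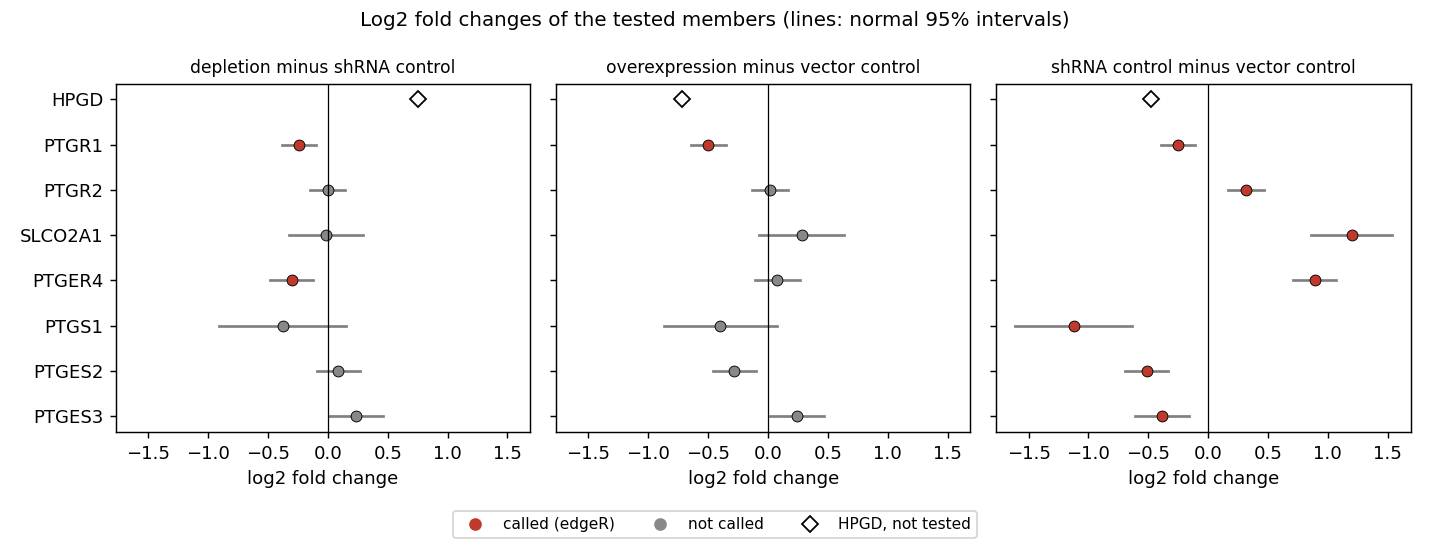
Log2 fold changes of the tested members in 3 comparisons, with normal 95% intervals as lines and filled points in red where edgeR called the gene. The normal intervals are narrower than the edgeR test allows. For PTGES3 they leave out 0 on depletion (0.011 to 0.463) and overexpression (0.013 to 0.465), where the unadjusted edgeR p was 0.0566 and 0.0549. HPGD is an open diamond with no line because it was chosen on these values. The spread of the points is widest in the comparison of the 2 controls, where SLCO2A1 stands at 1.198 and PTGS1 at -1.12.

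Other genes of the pathway were taken from lists chosen for their function, also with earlier results of these data known. Of 17 tested genes of phospholipid and arachidonic acid metabolism, 4 rose and 2 fell on depletion and 1 fell on overexpression, with medians of -0.09 and -0.05. Over all tested genes 9.4% were higher and 10.4% lower on depletion and 2.6% lower on overexpression, so the counts of genes that fell are near those shares. The fatty acid desaturases FADS1 and FADS2 rose 1.32-fold and 1.28-fold on depletion (edgeR adjusted p = 4.62e-05 and 0.00524), while the elongase ELOVL5 fell to 0.71 (edgeR adjusted p = 0.000298). The other genes that rose were the fatty acid activating enzyme ACSL3 and the arachidonate-releasing phospholipase PLA2G4A, both chosen after their values were seen. PLA2G4A had 1.76, 1.72 and 2.21 CPM in depleted cells, against 0.871, 1.17 and 1.26 CPM in the shRNA control (edgeR adjusted p = 0.00827). On overexpression the phospholipase PLAAT3 fell to 0.53 (9.19, 8.74 and 10.7 CPM in overexpressing cells, against 17.0, 16.9 and 20.1 CPM in the vector control, edgeR adjusted p = 1.19e-05). FADS1 and FADS2 were also lower in the shRNA control than in the vector control, at 0.629 and 0.558 of its level (edgeR adjusted p = 4.2e-08 and 4.54e-07).

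The next counts stand beside 9.4% higher and 10.4% lower over all tested genes on depletion, and 1.51% higher and 2.6% lower on overexpression. With so few genes a list, they are not read as a response of the list. Of 12 tested terminal synthases 2 fell and none rose on depletion, GSTM3 to 0.75 (edgeR adjusted p = 0.00166) and PRXL2B, a prostaglandin F synthase, to 0.82 (edgeR adjusted p = 0.0332). On overexpression edgeR called none of the synthases, where 5 had an unadjusted p under 0.05, DESeq2 called 3 and limma voom 0. Of 6 tested receptors PTGFR, the prostaglandin F receptor and by reads the most abundant of them, rose 1.32-fold on depletion, with 57.8, 55.9 and 57.4 CPM in depleted cells, against 46.3, 42.0 and 41.7 CPM in the shRNA control (edgeR adjusted p = 0.037). On overexpression TBXA2R, the thromboxane receptor, rose, with 0.523, 0.438 and 0.337 CPM in overexpressing cells, against 0.178, 0.219 and 0.254 CPM in the vector control (edgeR adjusted p = 0.0384, log2 fold change 1.00). DESeq2 also called 1 receptor on overexpression, and limma voom called 0. Of 7 tested transport and breakdown genes 1 rose and 2 fell on depletion, among them the prostaglandin exporter ABCC4, with 438, 455 and 413 CPM in depleted cells, against 605, 580.1 and 562 CPM in the shRNA control (0.748 of control, edgeR adjusted p = 4.47e-05). The other called genes of this list, named after their values were seen, rest on few reads: CYP4F3 had 6, 8 and 6 reads in depleted cells, against 2, 0 and 0 in the shRNA control, and CYP4F8 had 8, 2 and 10 reads in depleted cells, against 19, 18 and 23 in the shRNA control (edgeR adjusted p = 0.0418 and 0.0403). Of 8 tested lipoxygenase and leukotriene genes ALOX15 fell to 0.808 and ALOXE3 rose 1.33-fold on depletion (edgeR adjusted p = 0.00817 and 0.0361), and none was called by edgeR on overexpression, where 1 had an unadjusted p under 0.05, DESeq2 called 1 and limma voom 0.

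Downstream and androgen-driven genes were also counted. Of 11 tested cyclic AMP response genes 5 fell and 1 rose on depletion (median -0.45), where 10.4% of all tested genes were lower and 9.4% higher, with FOS at 0.34 and DUSP1 at 0.68 of control and the phosphodiesterase PDE4D 1.66-fold higher (edgeR adjusted p = 0.000366, 3.03e-05 and 4.29e-05). On overexpression 2 fell, FOS to 0.352 and SIK1 to 0.803 (edgeR adjusted p = 0.00429 and 0.0336), where 2.6% of all tested genes were lower. FOS had 2.67, 2.85 and 1.52 CPM in overexpressing cells, against 8.19, 8.10 and 3.66 CPM in the vector control, with replicate 3 lowest in both groups. In the shRNA control 7 of the 11 were higher and 2 lower than in the vector control, beside 21.7% higher and 21.3% lower over all tested genes. PDE4D stood there at 0.306 of the vector control level (edgeR adjusted p = 1.27e-09). Of 19 tested androgen response genes 14 fell and 2 rose on depletion (median -0.42), beside 10.4% lower and 9.4% higher over all tested genes, led by KLK3 at 0.229 of control (edgeR adjusted p = 1.54e-10), and 6 fell on overexpression (median -0.05), beside 2.6% over all tested genes. In the shRNA control, to which depleted cells were compared, 13 of the 19 were higher and 3 lower than in the vector control, beside the same 21.7% and 21.3%. HPGD, itself known as androgen induced, stood higher in depleted cells than in the shRNA control and was lower in overexpressing cells than in the vector control. These HPGD values chose the group, and their relation to the androgen response genes was not tested. ABCC4 and ACSL3 stand in both the androgen list and a prostanoid list.

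**Figure D5:**
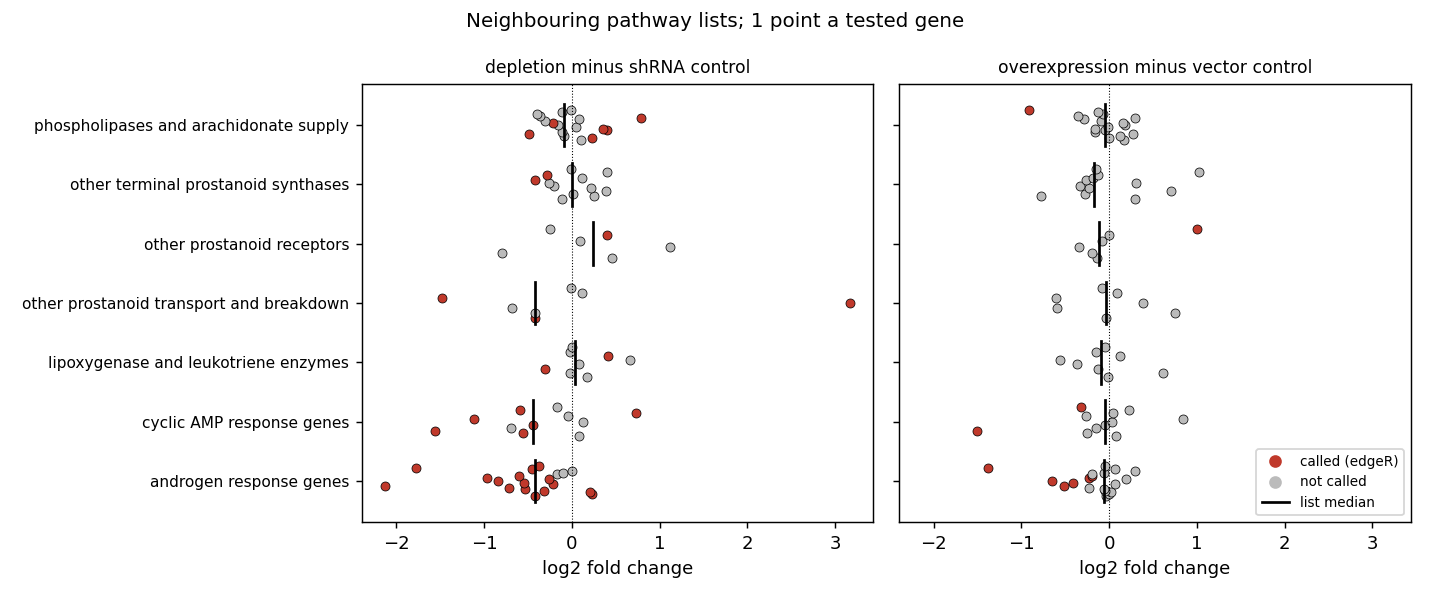
Log2 fold changes of the tested genes of 7 neighbouring lists on depletion and on overexpression, 1 point a gene, red where edgeR called it, with the list median as a bar. Androgen response genes lie mostly to the left on depletion (median -0.42) and near 0 on overexpression (median -0.05).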

How the data were processed

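The authors deposited 1 table of raw read counts per Ensembl gene ID for the 12 libraries, from total RNA with a strand-marking kit, per the labels' protocols. The submitters' processing notes list hg19, DESeq2 1.14.1, featureCounts 1.5.0-p3 and STAR 2.5.2a, without their roles. Whether counting used strand, which gene models it used and how it handled reads with several matches is not given in the sources used here. Values of overlapping, antisense or near-identical genes are therefore uncertain. The coordinates printed are those of the RefSeq promoter windows on GRCh38.p14, and none come from the count table.

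Columns were matched to samples by title, the overexpression columns through a shorter form of it. Symbols came from a gene name table by ID, for 80.1% of tested genes. ACPP had no match among the 119 list entries. Exon lengths and overlaps came from GENCODE 29.

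The deposited counts entered edgeR 4.0.16 under R 4.3.3 (filterByExpr by group, TMM scaling, glmQLFit and glmQLFTest on all 4 groups with 8 residual degrees of freedom), with Benjamini-Hochberg adjustment across the 26076 tested genes and a threshold of 0.05. CPM values use the scaled library sizes, and each SE is the log2 fold change over the root of F. Log2 CPM for the likeness to HPGD had 0.5 CPM added. With 3 libraries a group an exact permutation test cannot go below p = 0.1, so none was used.

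The members and lists were chosen with earlier results of these data known. Genes named in the text are USP22, all members, the 5 genes nearest to HPGD and up to 3 called genes per list and comparison with a mean of at least 1 CPM, taken by adjusted p. TBXA2R, PLA2G4A, ACSL3, CYP4F3 and CYP4F8 are named outside this rule. The procedure was also run on simulated data drawn with the fitted spread and with few changed genes, a setting unlike these data, so it does not bear on the calls. Alternatives were RLE scaling, no filter, a strict filter of at least 1 CPM in 3 libraries, DESeq2 1.42.0, limma 3.58.1 with voom, the 6 libraries compared alone, a replicate block and leaving out each library. For the difference of the 2 responses they were added after seeing the data.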

Additional observations from a re-analysis of the deposited data

How the results depend on the processing

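HPGD kept its direction in all 19 alternatives of each comparison. Its log2 value ranged from 0.68 to 0.85 on depletion, from -0.85 to -0.59 on overexpression and from -0.61 to -0.35 for the shRNA control against the vector control. The number of genes called on overexpression was 1072, against 2062 with no filter on low counts, 1781 by DESeq2, 327 with the 6 libraries compared alone and 501 to 1842 without 1 library. On depletion it was 5172, against 8115 with the 6 libraries compared and 3523 to 8359 without 1 library. The members called other than HPGD were 1 on overexpression, against 3 with no filter and 1 to 2 without 1 library, and 2 on depletion, against 0 to 3 without 1 library. The difference of the responses was called for 0 members, against 1 with no filter, 1 by DESeq2, 1 under the strict filter and 0 to 2 without 1 library. The cause of these changes was not tested.

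Values near 0 changed sign. PTGR2 on depletion was 0.011 under RLE scaling, 0.026 with no filter, 0.008 with the strict filter, 0.01 by DESeq2, 0.004 with the 6 libraries compared and -0.015 to 0.048 without 1 library. On overexpression it was -0.025 to 0.095 without 1 library. SLCO2A1 on depletion was 0.014 with no filter and -0.027 to 0.062 without 1 library. Of 450 values of the other 7 tested members under alternatives, 406 kept direction and side of the threshold. Correlations of same-numbered deviations from the group mean were -0.05 to 0.22, which does not decide whether libraries of the same number were paired. With the replicate block edgeR called 1098 genes on overexpression and 5272 on depletion, with PTGR1 at a log2 fold change of -0.50 on overexpression (edgeR adjusted p = 0.0017), and it changed no call of a member. Counting error limits PTGS2, PTGES and PTGS1 most.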
